A study of Oryza sativa with 4 samples.

Results

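The 813 genes analyzed here lie in the first 3000000 bases of rice chromosomes 11 and 12, which arose as copies of one another, and are among the 31414 genes with values in the series. Every transcript of the 2 chromosomes with a start below that position was taken, except those of 5 genes (Os11g0134300, Os11g0117600, Os11g0126900, Os11g0134900 and Os11g0104300), which were left out when the region was chosen from earlier results on these data. There were 463 transcripts of 411 genes on chromosome 11 and 447 transcripts of 402 genes on chromosome 12, together 910 of 37972 transcripts. RNA-sequencing of leaves was done on 2 libraries of OsNAC14OX plants, in which the constitutive PGD1 promoter drives the NAC transcription factor OsNAC14, and on 2 libraries of NT (non-transgenic) plants. All were untreated seedlings raised in soil pots in a greenhouse. The titles and column names give the cultivar as Nakdong, whereas the cultivar label reads Nipponbre. The age is 20 days in one label and 2 weeks in the protocol. The study describes the OsNAC14OX plants as a single transgenic line and the libraries of a group as biological duplicates. The overexpression and other properties of that line cannot be told apart.

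The ends of the short arms of chromosomes 11 and 12 hold the youngest large duplicated block of the rice genome. Their genes still stand in largely the same order, and gene conversion, by which one copy overwrites the sequence of the other, is known to have kept some copies near identical. Duplicate genes can stay alike in expression, or one copy can come to provide most of the transcript. The values are FPKM, read fragments corrected for transcript length and library size, and the levels compared are the deposited log2(FPKM + 1) after quantile normalization, which brings the libraries to one distribution. How reads that match both copies were assigned is not stated, so the levels of near-identical copies are uncertain, and whether counting used the strand is not stated, so genes that overlap cannot be told apart. Read numbers, and so the depth, are unknown. In bulk leaf tissue, fewer cells of a type and less RNA per cell cannot be told apart.

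OsNAC14 itself had 16.4 and 16.3 FPKM in the OsNAC14OX libraries, against 3.16 and 3.70 FPKM in the NT libraries, as the labels say. Rubisco small subunit and chlorophyll a/b binding proteins mark leaf mesophyll. Of their 22 transcripts, 20 or 21 had at least 1 FPKM in each library. The 22 summed to 11614 and 14173 FPKM in OsNAC14OX, against 10661 and 10405 FPKM in NT. This sum joins transcripts that did not move alike. The Rubisco transcript Os12t0274700-02 had 2868 and 2794 FPKM in OsNAC14OX, against 1494 and 1486 FPKM in NT. The highest chlorophyll a/b binding transcript, Os09t0346500-04, had 2428 and 3210 FPKM in OsNAC14OX, against 2571 and 2632 FPKM in NT. Across the series, 1074 of 30251 tested transcripts (3.55%) were at least 2-fold higher in OsNAC14OX replicate 1 than in OsNAC14OX replicate 2. A summed level of 3 transcripts described as root specific was 22.9 FPKM in OsNAC14OX replicate 1 and 50.5 FPKM in OsNAC14OX replicate 2, against 50.1 and 50.5 FPKM in NT. Of these, Os02t0131800-01 was lower in both OsNAC14OX libraries, with 8.31 and 12.7 FPKM against 20.3 and 20.2 FPKM in NT. Os10t0551800-00 had 14.3 and 37.0 FPKM in OsNAC14OX, against 28.9 and 29.3 FPKM in NT. The OsNAC14OX libraries thus differed from each other, with replicate 2 highest in leaf markers and replicate 1 lowest in root-specific transcripts. The part of these markers in the results was not tested, and named members whose log2 fold change moved by over 1.5 times without OsNAC14OX replicate 1 are given with and without it.

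Genes of the 2 ends were paired by walking along both in order and matching equal descriptions. Each gene stood for its transcript with the highest mean FPKM, and uninformative descriptions such as "hypothetical protein" were not used for pairing. This gave 95 collinear pairs from 250 genes with an informative description on chromosome 11 and 274 on chromosome 12. The same rule applied to the first 3000000 bases of the 65 other combinations of chromosomes gave 1 to 12 pairs, with a median of 7. A further 19 genes on chromosome 11 and 33 on chromosome 12 had an equal description on the other end but stood out of order. Between copies, the start on chromosome 12 minus that on chromosome 11 ranged from -123341 to 246057 bases.

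Pairs were found along the whole stretch but became sparser inward. In steps of 0.5 Mb from the end of chromosome 11, 19, 18, 19, 19, 13 and 7 pairs were found. These were 45.2%, 45%, 47.5%, 42.2%, 31.7% and 16.7% of the chromosome 11 genes with an informative description in each step. Of the paired genes, 85.3% on chromosome 11 and 80% on chromosome 12 had at least 1 FPKM in at least 2 libraries, the minimum for testing. Genes with a description found on 1 end only reached that minimum in 82.4% of 136 cases on chromosome 11 and 78.8% of 146 on chromosome 12. Genes with uninformative descriptions did so in 73.9% of 161 and 71.9% of 128.

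Copies mostly sat at similar levels, yet most pairs could be told apart in these leaves. In 56 of 95 pairs (58.9%), all 4 normalized values of one copy lay above all 4 of the other, with the chromosome 11 copy above in 34 pairs and the chromosome 12 copy above in 22. The other 39 pairs overlapped. This rule does not match the copies library by library, so an overlapping pair can still keep 1 order in every library. The clathrin heavy chain pair Os11g0104866 and Os12g0104766 did so, at 0.127 ± 0.015 log2 (SD, n = 4 libraries). The median absolute difference between copies was 0.44 on the log2 scale in OsNAC14OX and 0.45 in NT. For comparison, a pair's difference moved between the replicates of a group by a median of 0.15 in OsNAC14OX and 0.12 in NT. In 50 pairs the difference was below 0.5 log2, in 19 pairs it was at least 1 (10 with the chromosome 11 copy above and 9 with the chromosome 12 copy above), and in 4 pairs at least 2. The mean levels of the copies correlated across the 95 pairs with Pearson's r = 0.89 and Spearman's rho = 0.87, a description over genes of the same 4 libraries, which are not independent replicates. In 13 pairs both copies averaged under 1 FPKM and in 10 only one did.

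**Figure D1:**
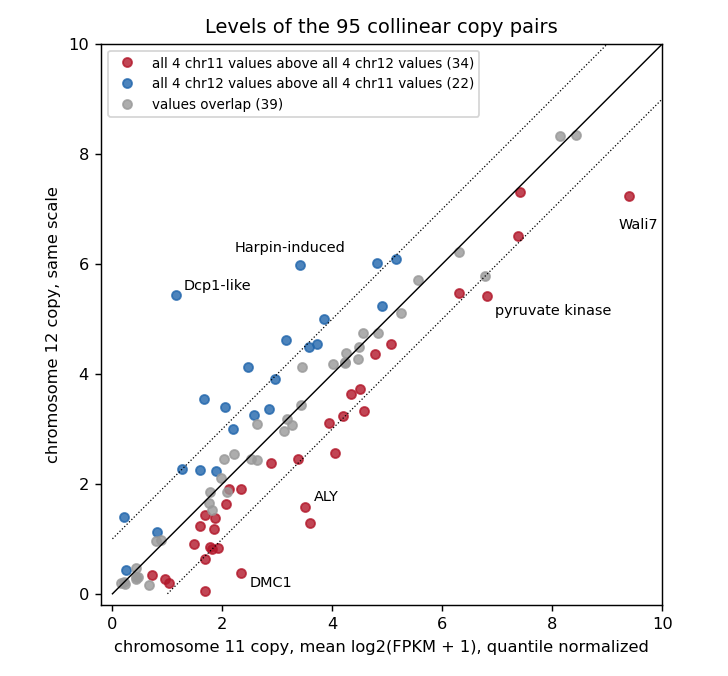
Mean level of the chromosome 12 copy against that of the chromosome 11 copy over the 4 libraries for the 95 pairs, on the log2(FPKM + 1) scale, with equality as a solid line and 1 log2 either side as dotted lines. Red points are the 34 pairs with all chromosome 11 values on top, blue points the 22 with all chromosome 12 values on top, and 19 pairs differ by at least 1 log2.

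The chromosome 11 copy was the more abundant in the pairs of Wali7, pyruvate kinase and a protein-tyrosine phosphatase. Os11g0147800, described as similar to Wali7, a protein first found as aluminium-induced in wheat, had 575 and 722 FPKM in OsNAC14OX and 617 and 732 FPKM in NT. Its chromosome 12 copy Os12g0145100 had 143 and 193 FPKM in OsNAC14OX and 142 and 136 FPKM in NT. The chromosome 11 copy was above by 2.16 ± 0.27 log2 (SD, n = 4 libraries), and no value of the copies overlapped. For pyruvate kinase, which makes pyruvate at the end of glycolysis, Os11g0148500 had 109 and 115 FPKM in OsNAC14OX and 115 and 110 FPKM in NT. Its copy Os12g0145700 had 41.2 and 40.4 FPKM in OsNAC14OX and 42.8 and 44.1 FPKM in NT. Both groups thus held the same order of copies at almost the same distance. A protein-tyrosine phosphatase of dual specificity, an enzyme class that removes phosphate from signalling proteins, was above on chromosome 11 by 1.5 ± 0.12 log2 (Os11g0113100 over Os12g0112500, SD, n = 4 libraries).

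Further pairs with a higher chromosome 11 copy were of ALY, an arabinoxylan arabinofuranohydrolase and DMC1. ALY proteins are adaptors that hand spliced mRNA to the export machinery. Os11g0100200 (ALY) had 7.78 and 10.4 FPKM in OsNAC14OX and 11.8 and 12.2 FPKM in NT. Its copy Os12g0100100 had 2.65 and 3.01 FPKM in OsNAC14OX and 1.38 and 1.28 FPKM in NT. The copies did not overlap, and the distance between them was smaller in OsNAC14OX (1.37 log2) than in NT (2.48 log2). An arabinoxylan arabinofuranohydrolase, which takes arabinose off a wall polysaccharide of grasses, was above on chromosome 11 by 2.31 ± 0.37 log2 (Os11g0132600 over Os12g0129300, SD, n = 4 libraries). A second pair with this description ran the other way without overlap, at -0.93 ± 0.17 log2 (Os11g0131900 and Os12g0128700). The annotated transcripts of the first pair are 2408 and 668 bases long, and in 9 of the 95 pairs the lengths differ by more than 1.5 times. DMC1, the recombinase that pairs homologous DNA in meiosis, had 4.97 and 4.88 FPKM in OsNAC14OX and 3.36 and 3.26 FPKM in NT on chromosome 11 (Os11g0146800). The chromosome 12 copy Os12g0143800 stayed between 0.166 and 0.482 FPKM in the 4 libraries. This pair was picked after its values were seen.

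The chromosome 12 copy was the more abundant in other pairs, and the widest gap of all was of this kind. Dcp1 is a subunit of the enzyme complex that removes the cap of mRNAs before their decay. Os11g0155000 (Dcp1-like) had 1.2 and 1.24 FPKM in OsNAC14OX and 1.14 and 1.26 FPKM in NT. Its copy Os12g0156400 had 39.7 and 44.8 FPKM in OsNAC14OX and 44.0 and 40.9 FPKM in NT. The difference of -4.28 ± 0.11 log2 (chromosome 11 minus chromosome 12, SD, n = 4 libraries) was of the same size in both groups. The last pair, 2 Harpin-induced 1 domain proteins of a family related to NDR1, a defence gene of Arabidopsis, stood at -2.56 ± 0.32 log2. In it, Os11g0157300 had 13.3 and 8.80 FPKM in OsNAC14OX and 8.73 and 8.49 FPKM in NT. Os12g0159600 had 60.1 and 67.0 FPKM in OsNAC14OX and 63.5 and 58.9 FPKM in NT. The neighbouring pair Os11g0157200 and Os12g0159000 has the same description. It ran the other way, at 0.99 ± 0.51 log2, with overlapping values. Which of these neighbouring genes are copies of each other was not tested, so both differences are uncertain.

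CYP90A1 is an enzyme of brassinosteroid synthesis known from Arabidopsis. Os11g0143200 (CYP90A1-like) had 5.92 and 3.33 FPKM in OsNAC14OX and 4.60 and 4.46 FPKM in NT. Os12g0139300 had 20.7 and 11.96 FPKM in OsNAC14OX and 16.9 and 17.4 FPKM in NT. Both copies were lowest in OsNAC14OX replicate 2 and highest in OsNAC14OX replicate 1, and the difference between them kept at -1.66 ± 0.08 log2 (SD, n = 4 libraries). A pair of WRKY factors, DNA-binding proteins with many members in defence, differed by -1.89 ± 0.48 log2. Its copy Os11g0117400 had 3.26 and 2.40 FPKM in OsNAC14OX and 1.72 and 1.47 FPKM in NT. The copy Os12g0116400 had 9.11 and 11.6 FPKM in OsNAC14OX and 10.8 and 11.5 FPKM in NT, with overlapping groups. Os11g0116900, left unpaired on chromosome 11, has the same description. It had 8.34 and 9.76 FPKM in OsNAC14OX and 9.01 and 8.67 FPKM in NT. Which of these chromosome 11 genes is the copy of Os12g0116400 was not tested, so the difference of this pair is uncertain.

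**Figure D2:**
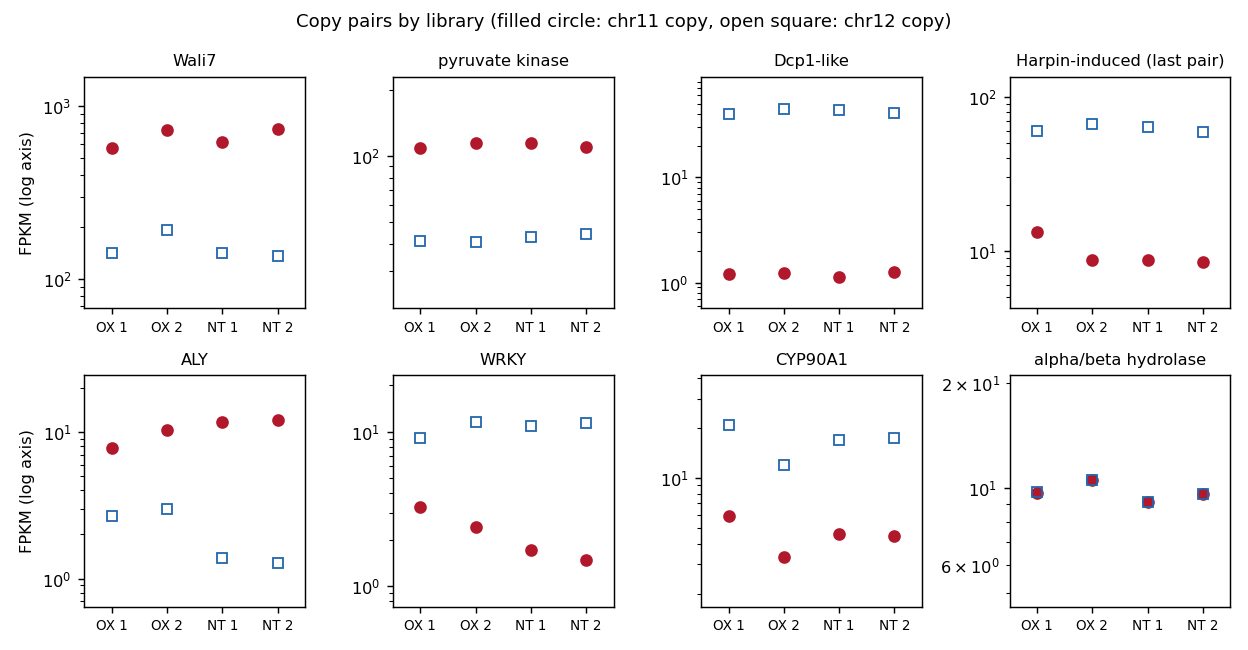
FPKM on log axes of 8 pairs in OsNAC14OX replicates 1 and 2 (OX 1, OX 2) and NT replicates 1 and 2, with the chromosome 11 copy as filled circles and the chromosome 12 copy as open squares. The copies keep their order in every library of 7 pairs, from Wali7 (575 to 732 FPKM on chromosome 11) to Dcp1-like (1.14 to 1.26 FPKM on chromosome 11), and lie on top of each other for the alpha/beta hydrolase.

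At the other extreme were pairs with practically one level. Os11g0100600 and Os12g0100500, alpha/beta hydrolases near the chromosome ends, had 9.70 and 10.5 FPKM against 9.73 and 10.5 FPKM in the OsNAC14OX libraries. In NT both copies had 9.13 and 9.63 FPKM. Their FPKM agreed within 0.28% in every library, and both annotated transcripts are 1201 bases long. For the RNase P subunit p30, part of the enzyme that trims the 5' end of tRNAs, Os11g0101200 and Os12g0101000 agreed within 1.57% and both are 1833 bases long. The pairs of a phosphoethanolamine-activating enzyme of membrane lipid synthesis (Os11g0123400 and Os12g0121300), 50S ribosomal protein L24, PTAC6 (a part of the plastid transcription complex in Arabidopsis) and an EF-hand protein, a class that binds calcium, differed by 0.00 to 0.09 log2 in absolute mean. In 7 pairs the copies agreed within 10% in every library, 2 of them with equal transcript lengths. The 9 pairs with equal lengths had a median absolute difference of 0.13 log2, against 0.51 log2 in the 86 others. The 9 include Os11g0100800, Os11g0105000 and Os11g0141500 with their copies, all averaging under 1 FPKM. Such low values lie close together on the log2(FPKM + 1) scale. The part of low levels and of reads shared between copies in this contrast was not tested.

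The difference between copies was smallest next to the chromosome end. Over the same 0.5 Mb steps, the median absolute difference was 0.16, 0.83, 0.42, 0.51, 0.70 and 0.99 log2. The innermost step includes the neighbouring Harpin-induced 1 domain pairs, whose assignment is uncertain. Its median of 0.99 is the difference of the pair Os11g0157200 and Os12g0159000. Of the 9 pairs with equal lengths, 6 lay in the outermost step, and so did 4 of the 7 pairs that agreed within 10%. Among pairs with both copies at 5 FPKM or more, the outermost 9 pairs had a median of 0.13 log2 and the 33 farther in had 0.68 log2. Leaving out the pairs that agreed within 10%, the medians were 0.31 log2 for 15 pairs and 0.58 log2 for 73 pairs. The absolute difference and the order of the pairs had a Spearman's rho of 0.24 and a Pearson's r of 0.26 over 95 pairs. Without the outermost step, rho was 0.08 and r was 0.19 over 76 pairs, and without the innermost step rho was 0.19 and r was 0.18 over 88 pairs. The rank correlation thus rests mostly on the outermost step, which is less so for r, and every step holds under 20 pairs. Within the outermost step the ALY pair was an exception. A pair of EF-hand proteins (Os11g0103700 and Os12g0103000) also lay apart, by -0.96 ± 0.08 log2 (SD, n = 4 libraries). So did a clathrin heavy chain pair (Os11g0104900 and Os12g0104800) at 0.87 log2. Pairs of an IBR domain protein and a ubiquitin-activating enzyme E1 stood at 0.69 and -0.68 log2. Values overlapped in 11 of the 19 pairs of this step.

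**Figure D3:**
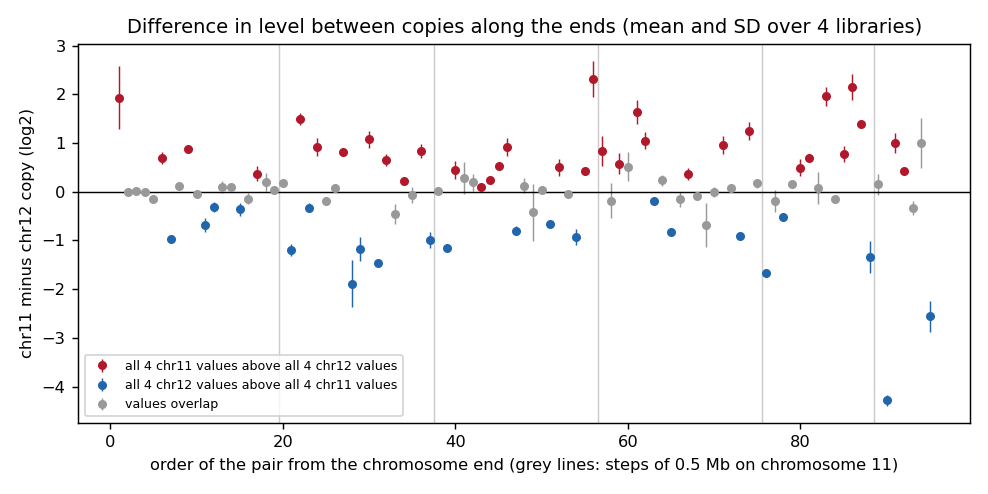
Level of the chromosome 11 copy minus that of the chromosome 12 copy (log2, mean and SD over 4 libraries) by order of the 95 pairs from the chromosome end, with grey lines at steps of 0.5 Mb on chromosome 11. Most of the 19 pairs of the outermost step lie near 0 (median absolute difference 0.16), and both directions occur in every step.

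Across all paired genes the chromosome 11 copies summed to more transcript, and a single gene made most of that surplus. Their summed FPKM was 1.23 and 1.30 times that of the chromosome 12 copies in OsNAC14OX and 1.24 and 1.25 times in NT. Without the Wali7 pair the ratios were 1.02 and 1.06 in OsNAC14OX and 1.032 and 1.0002 in NT. The ratios with Wali7 averaged 1.26 ± 0.05 in OsNAC14OX and 1.25 ± 0.01 in NT (SD, n = 2 each), and a two-sided exact permutation test gave p = 1, where 2 against 2 libraries cannot go below 0.333. Over all members, paired or not, the ratio lay between 1.0003 and 1.047 in the 4 libraries.

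Genes of iron storage, calcium export and cytokinin signalling were measured well above 1 FPKM on both ends. Ferritin stores iron in plastids. Os11g0106700 (ferritin) had 31.5 and 25.5 FPKM in OsNAC14OX and 30.17 and 29.96 FPKM in NT. Os12g0106000 had 38.3 and 35.6 FPKM in OsNAC14OX and 35.5 and 37.3 FPKM in NT, above its copy in all libraries. The A-type response regulators Os11g0143300 and Os12g0139400, which dampen cytokinin signalling, lay between 20.3 and 28.7 FPKM and overlapped. Of the plasma membrane calcium pumps, Os11g0140400 had 15.7 and 17.6 FPKM in OsNAC14OX and 16.1 and 16.7 FPKM in NT. Os12g0136900 had 10.2 and 11.4 FPKM in OsNAC14OX and 9.87 and 9.78 FPKM in NT. Their descriptions differ, so the pairing rule did not join them. Of 4 pairs in a list matched by words of metal and ion transport, 2 had the chromosome 11 copy above and 2 the chromosome 12 copy. These pairs include ferritin and genes described only as ATPase-like, which need not be transporters. Of 4 pairs of transcription factors, 3 overlapped. The collinear pair of NAM domain genes, relatives of OsNAC14, was low. Os11g0127600 had 3.36 and 2.36 FPKM in OsNAC14OX and 1.91 and 2.39 FPKM in NT, with overlapping groups. Its copy Os12g0123800 had 3.73 and 1.82 FPKM in OsNAC14OX and 1.32 and 1.12 FPKM in NT, with separate groups and a log2 fold change of 0.76 ± 0.29 (SE, limma adjusted p = 0.56), or 0.39 without OsNAC14OX replicate 1.

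Genes of nonspecific lipid transfer proteins, small secreted proteins that carry lipids toward the cuticle and wall, formed a cluster on both ends and were among the most abundant members. By description 12 transcripts were found, 6 on each end, between 680034 and 724377 on chromosome 11 and between 723297 and 762381 on chromosome 12 (IRGSP-1.0). Together they had 1304 and 1451 FPKM in OsNAC14OX on chromosome 11, against 1572 and 1691 FPKM in NT. On chromosome 12 they had 1368 and 1519 FPKM in OsNAC14OX, against 1579 and 1790 FPKM in NT. Both sums were lower in OsNAC14OX in each library, but none of the 12 transcripts passed the test of OsNAC14OX against NT described below. Os12t0114800-01 had 236 and 280 FPKM in OsNAC14OX, against 372 and 443 FPKM in NT, with a log2 fold change of -0.60 ± 0.13 (SE) and a limma adjusted p of 0.33. Its copy Os11t0115100-01 had 215 and 257 FPKM in OsNAC14OX, against 313 and 371 FPKM in NT. These groups did not overlap on either end. The most abundant transcripts of the cluster were also lower without overlap. Os11t0115350-01 had 393 and 346 FPKM in OsNAC14OX, against 519 and 552 FPKM in NT. Os12t0115000-00 had 426 and 374 FPKM in OsNAC14OX, against 503 and 534 FPKM in NT. So was the weaker pair Os11t0114900-01 and Os12t0114500-01, with log2 fold changes of -0.63 and -0.75. In the other direction, Os12t0115100-00 (LTP 1) had 215 and 279 FPKM in OsNAC14OX, against 186 and 199 FPKM in NT, also without overlap, with a log2 fold change of 0.41 ± 0.13 (SE) and a limma adjusted p of 0.45. Os11t0115400-00 (LPT IV) had 146 and 199 FPKM in OsNAC14OX, against 148 and 73.2 FPKM in NT. The pair Os11g0116200 and Os12g0115500, described as lipid transfer protein 3, had 314 and 373 FPKM in OsNAC14OX, against 324 and 373 FPKM in NT, on chromosome 11. On chromosome 12 it had 285 and 340 FPKM in OsNAC14OX, against 313 and 380 FPKM in NT. Reads shared among these similar genes could move their values. The cluster as a whole was chosen after its values were seen. A list made by the spelling "lipid transfer" caught only 4 of the 12, with 0 calls and a median log2 fold change of -0.16.

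OsNAC14OX was compared with NT to ask which genes respond to the overexpression. limma, a linear model that shares the variance over transcripts, was fitted to all 30251 transcripts with at least 1 FPKM in at least 2 libraries, with Benjamini-Hochberg adjustment over all of them. Transcripts with a fold of 2 or more and an adjusted p below 0.05 were called. Of the 910 member transcripts, 686 were tested, and 1 was called higher and 0 lower, where 0.555% of all tested transcripts were called (0.251% higher and 0.304% lower). At an unadjusted p under 0.05 there were 52 members (7.58%), where 9.4% of all tested transcripts passed. An absolute log2 fold change of at least 1 was found in 9 members (1.31%), where the share over all was 2.58%. The groups did not overlap in 114 members with a higher and 170 with a lower OsNAC14OX mean (41.4%), where the share over all was 42.1% (16.8% higher and 25.3% lower). The region was chosen with this contrast known, so these shares are a description. The median log2 fold change was 0.01 on chromosome 11 and 0.02 on chromosome 12, beside 0.00 over all tested transcripts. Without quantile normalization it was -0.02 and -0.01, beside -0.03 over all.

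The called member was Os11t0134232-00, a non-protein coding transcript on chromosome 11 from 1603702 to 1604322 (IRGSP-1.0). It had 4.21 and 5.23 FPKM in OsNAC14OX, against 0.122 and 0.238 FPKM in NT, and the groups lay far apart. The log2 fold change on the FPKM + 1 scale was 2.30 ± 0.14 (SE, limma adjusted p = 0.025), and 4.13 with a pseudocount of 0.1 in place of 1. It ends 859 bases before the start of Os11g0134300, a serine/threonine kinase gene that is one of the 5 left out. The study names that gene OsCIPK33. Whether the reads of Os11t0134232-00 come from that gene was not tested. The call was lost without OsNAC14OX replicate 1 (limma adjusted p = 0.059) and without either NT library (0.145 and 0.334), though the log2 fold change stayed between 2.18 and 2.42 when any one library was left out. With the 5 genes put back, 2 members were called. Without OsNAC14OX replicate 1 no member was called, and without OsNAC14OX replicate 2 there were 18 calls (15 higher and 3 lower), where 2.55% of all tested transcripts were called.

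Other members with separate groups were not called. The kinase Os12t0132200-02, described as similar to CIPK33, a partner of calcineurin B-like calcium sensors, had 10.5 and 9.23 FPKM in OsNAC14OX, against 3.77 and 6.05 FPKM in NT. Its log2 fold change was 0.92 ± 0.21 (SE, limma adjusted p = 0.34), but 0.36 when FPKM were summed over both transcripts of the gene. The other and longer transcript, Os12t0132200-01, had 14.1 and 18.8 FPKM in OsNAC14OX, against 15.4 and 15.2 FPKM in NT. The WRKY gene Os11t0117500-01 had 9.001 and 1.62 FPKM in OsNAC14OX, against 0.697 and 1.04 FPKM in NT. Os12t0116700-01, similar to WRKY64, had 5.94 and 1.80 FPKM in OsNAC14OX, against 1.43 and 1.47 FPKM in NT. Os12t0114000-01, of unknown function, had 18.2 and 4.11 FPKM in OsNAC14OX, against 2.29 and 2.52 FPKM in NT. In these 3 transcripts the gap came mainly from OsNAC14OX replicate 1. With that library the log2 fold changes were 1.49, 0.88 and 1.55, and without it 0.53, 0.23 and 0.60.

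Lower values in OsNAC14OX, also without a call, were found in 5 named transcripts of chromosome 11. The major facilitator transporter Os11t0151500-01 had 2.03 and 5.41 FPKM in OsNAC14OX, against 12.5 and 11.8 FPKM in NT, with a log2 fold change of -1.53 ± 0.39 (SE, limma adjusted p = 0.38), and of -1.002 without OsNAC14OX replicate 1. The hypothetical transcript Os11t0134950-00 had 0.328 and 0.483 FPKM in OsNAC14OX, against 2.00 and 2.41 FPKM in NT, with -1.17 ± 0.13 (SE, limma adjusted p = 0.088) and -2.20 with a pseudocount of 0.1. It spans 1618885 to 1623931 and so overlaps the left-out antiporter gene Os11g0134900 (1618494 to 1623978), from which its reads cannot be told apart. A Myb factor, Os11t0128500-01, had 1.93 and 2.38 FPKM in OsNAC14OX, against 4.29 and 5.10 FPKM in NT. The alpha/beta hydrolase fold-3 transcript Os11t0138900-02 had 4.77 and 9.76 FPKM in OsNAC14OX, against 14.1 and 13.9 FPKM in NT, with a log2 fold change of -0.89, and of -0.44 without OsNAC14OX replicate 1. The hypothetical transcript Os11t0127951-00 had 0.745 and 1.16 FPKM in OsNAC14OX, against 1.40 and 3.92 FPKM in NT, and its log2 fold change was -0.79, or -1.25 with a pseudocount of 0.1.

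**Figure D4:**
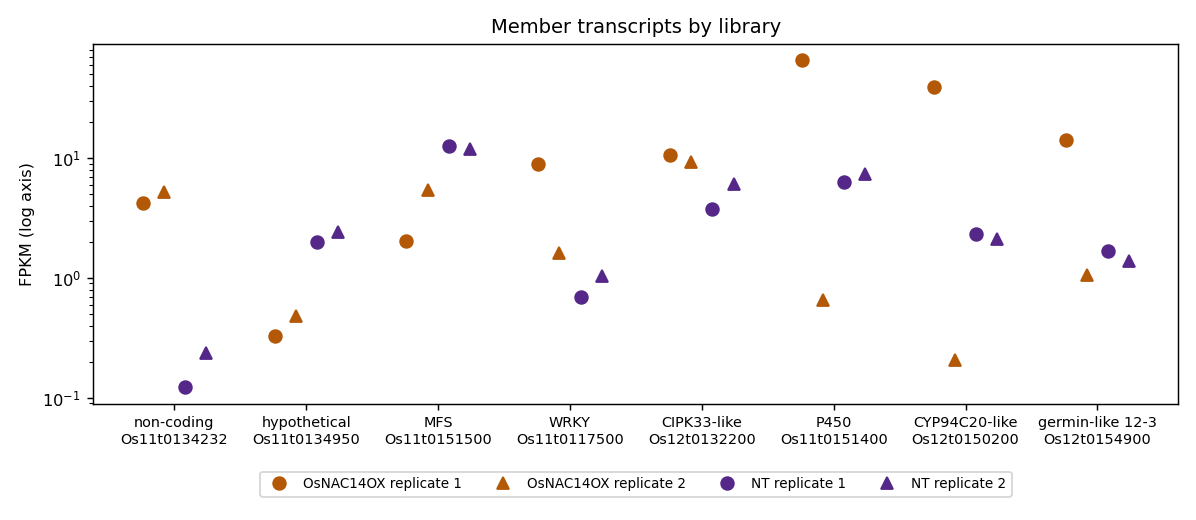
FPKM on a log axis of 8 member transcripts in the 4 libraries, OsNAC14OX in orange and NT in purple. The non-coding transcript Os11t0134232-00 is high in both OsNAC14OX libraries (4.21 and 5.23 FPKM), while the P450 and germin-like transcripts on the right are high in OsNAC14OX replicate 1 alone.

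Some members were higher in OsNAC14OX replicate 1 than in OsNAC14OX replicate 2, at a smaller share than over all tested transcripts. At least 2-fold higher values in replicate 1 were found in 18 of 686 members (2.62%), where 3.55% of all tested transcripts had them. The reverse was found in 5 members (0.729%), where the share over all was 1.11%. Between the NT libraries, 4 members were so much higher in replicate 1 and 1 in replicate 2. Over all 30251 tested transcripts these were 403 and 286. The cytochrome P450 gene Os11t0151400-01 had 65.4 and 0.659 FPKM in OsNAC14OX, against 6.30 and 7.36 FPKM in NT. Os12t0150200-01, similar to CYP94C20, of a family that oxidizes jasmonate in Arabidopsis, had 39.5 and 0.208 FPKM in OsNAC14OX, against 2.34 and 2.13 FPKM in NT. In both P450 genes the NT libraries lay between the OsNAC14OX libraries. Their log2 fold changes of 0.44 and 1.12 became -2.22 and -1.40 without OsNAC14OX replicate 1. The summed root-specific transcripts were lowest in OsNAC14OX replicate 1 as well (22.9 FPKM), and their part in this difference was not tested.

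Neighbouring germin-like genes on chromosome 12, between 2688759 and 2700272 (IRGSP-1.0), showed this pattern together. Germin-like proteins are wall proteins tied to basal disease resistance in rice. Os12t0154700-01 (germin-like 12-1) had 11.03 and 0.861 FPKM in OsNAC14OX, against 1.72 and 2.29 FPKM in NT. Os12t0154900-00 (germin-like 12-3) had 14.2 and 1.06 FPKM in OsNAC14OX, against 1.69 and 1.37 FPKM in NT. Os12t0154800-00 and Os12t0155000-00 had 10.6 and 7.46 FPKM in OsNAC14OX replicate 1 and stayed between 1.47 and 2.01 FPKM in the other 3 libraries. The log2 fold changes of the 4 genes lay between 0.68 and 1.16, and between -0.66 and -0.04 without OsNAC14OX replicate 1. Reads may be shared among such related neighbours, so their separate values are uncertain. The NAM domain gene Os11t0154500-01 had 4.20 and 0.446 FPKM in OsNAC14OX, against 1.12 and 1.06 FPKM in NT, with a log2 fold change of 0.42, and of -0.51 without OsNAC14OX replicate 1. The members of this paragraph and the P450 genes were chosen after the difference between the libraries was seen.

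By role, no list of members held a called transcript other than the uninformative descriptions, which held the non-coding one. Of 40 transcription factor transcripts 29 were tested, with log2 fold changes from -0.82 to 1.49 and a median of 0.06 (-0.72 to 0.53 without OsNAC14OX replicate 1). The 29 tested kinases and phosphatases of 43 had a median of 0.04, and the 21 tested genes of protein turnover of 33 had 0.07. The 12 translation transcripts, all tested, had a median of -0.12 with a range of -0.28 to 0.00, and in 8 of them both OsNAC14OX values lay below both NT values, where 25.3% of all tested transcripts had this. The 7 tested resistance-type transcripts of 9 ranged from -0.16 to 1.16, and from -0.66 to 0.23 without OsNAC14OX replicate 1. The top value was that of the germin-like Os12t0154900-00, which the words "Disease resistance" caught together with Os12t0154700-01. The spelling "Leucine Rich Repeat", as in Os11g0107700, was missed by this list. The 19 tested redox and P450 transcripts of 21 had a median of 0.01 (-0.11 without OsNAC14OX replicate 1), the 14 metal and ion transport transcripts of 16 had 0.01, and the 14 RNA processing transcripts of 21 had -0.02. Over all tested transcripts the median was 0.00.

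The copies of a pair mostly had similar OsNAC14OX minus NT differences. The difference of the chromosome 11 copy and that of the chromosome 12 copy lay a median of 0.10 log2 apart over the 95 pairs, and in 3 pairs at least 0.5 apart. Only the ALY pair lay at least 1 apart, with -0.35 for Os11g0100200 and 0.75 for Os12g0100100. Neither copy was called (limma adjusted p = 0.64 and 0.19), and without OsNAC14OX replicate 1 the copies lay 0.97 apart (-0.16 and 0.81), so that 0 pairs passed. The alpha/beta hydrolase fold-3 pair had -0.89 for Os11g0138900 and -0.17 for Os12g0135800, and -0.44 and 0.10 without OsNAC14OX replicate 1. In the WRKY pair the values were 0.59 for Os11g0117400 and -0.07 for Os12g0116400, and 0.43 and 0.09 without OsNAC14OX replicate 1. The test called no copy of either pair. The unpaired Os11g0116900, with the same description as the WRKY pair, had 0.06. With 2 libraries in each group, no exact permutation test of a single pair can go below p = 0.333.

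**Figure D5:**
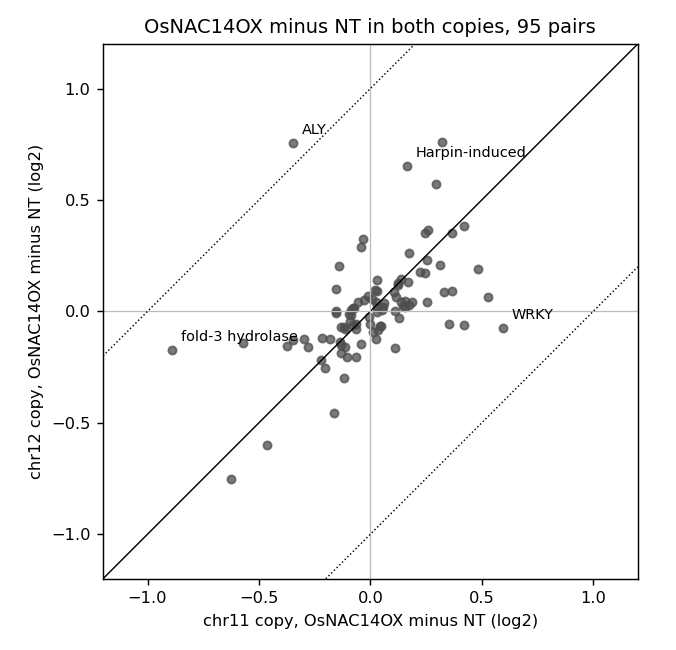
OsNAC14OX minus NT difference (log2) of the chromosome 12 copy against that of the chromosome 11 copy for the 95 pairs, with equality as a solid line and 1 log2 either side as dotted lines. The ALY pair (-0.35 and 0.75) is the 1 pair beyond a dotted line.

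Of the 5 genes left out, 2 have a description that occurs in the same words on the chromosome 12 end. A copy described in other words would be missed. Os11g0134300, which the study names OsCIPK33, starts at 1605182. On chromosome 12, Os12g0132200, described as similar to CIPK33, starts at 1554892. The Clp N-terminal domain gene Os12g0104300, of a family of chaperones, had 39.9 and 53.6 FPKM in OsNAC14OX, against 54.3 and 45.9 FPKM in NT, with overlapping groups. The antiporters Os12g0132500 and Os12g0133000 share the description of Os11g0134900 and stood in collinear pairs with Os11g0135000 and Os11g0135300. Os12g0133000 had 0.442 and 0.459 FPKM in OsNAC14OX, against 0.619 and 0.659 FPKM in NT, and was not tested because of its low level. Os12g0132500 stayed at or below 0.0675 FPKM. Their chromosome 11 copies were above in all libraries, with 2.53 and 2.63 FPKM in OsNAC14OX and 1.94 and 1.82 FPKM in NT for Os11g0135000.

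The boundary of 3000000 fell between genes of low or middling level. The last gene inside on chromosome 11, Os11g0161200 (similar to ATOZI1), had 2.60 and 1.34 FPKM in OsNAC14OX, against 2.02 and 1.75 FPKM in NT. The first outside, Os11g0161700, had 1.05 and 1.23 FPKM in OsNAC14OX, against 1.80 and 1.69 FPKM in NT. On chromosome 12, Os12g0160100 inside had 8.98 and 11.01 FPKM in OsNAC14OX, against 9.78 and 12.8 FPKM in NT. Os12g0160200 outside had 0.152 and 0.330 FPKM in OsNAC14OX, against 0.198 and 0.641 FPKM in NT. The remainder of both chromosomes had 61 calls among 2505 tested transcripts (2.44%), and the first 3000000 bases of chromosomes 1 to 10 had 26 among 2960 (0.878%).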

How the data were processed

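The authors trimmed single-end reads with Trimmomatic, removed low-quality ones, and used TopHat with the RAP-DB gene models to place them on IRGSP-1.0. The deposited FPKM are scaled for transcript length and mapped reads, and no source used here names the tool that made them. The deposited log2 values are log2(FPKM + 1), quantile normalized by the authors over a table that also holds 4 columns of 2 libraries outside the series, which were not used. Transcript lengths are in the deposited table. The deposited starts count from 0, since 9352 transcripts have a length of end minus start, and were raised by 1. Columns of the authors' folds and p-values and their tables of selected transcripts were not used.

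The members and lists were chosen with earlier results of these data known. limma 3.58.1 in R 4.3.3 (lmFit, eBayes with trend, two-sided) was fitted to the normalized values of 2 OsNAC14OX and 2 NT libraries and checked on simulated data. Pairs and summaries were computed in Python 3.11.15 (pandas 2.3.3, numpy 2.4.6), and the permutation test in scipy 1.17.1. Copies were paired by the longest common run of equal descriptions in gene order. Hypothetical, non-coding, predicted or expressed protein and clone descriptions were not paired, and numbered domains of unknown function were. The clone, predicted and expressed terms were added after the files were seen. Named genes were all calls, the 5 largest fold changes each way with separate groups, the pairs with the largest and smallest differences, highest levels and most unlike changes, ferritin, response regulator, calcium pump, WRKY, NAC and lipid transfer genes, copies of left-out genes, and boundary genes. Other genes and pairs, and the lipid transfer cluster as a whole, were not fixed by these rules. Only some of them are marked in the text. Role lists were matched on words of the description. FPKM keep no read numbers, so depth is unknown and no count model or counting interval was used. Alternatives were other normalization, pseudocount, filters, summing per gene, variance, thresholds, pairing rules and boundary, the replicate block, and each library left out.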

Additional observations from a re-analysis of the deposited data

How the results depend on the processing

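Of the 1 member called, 0 calls remained with no filter on FPKM, with a minimum of 5 FPKM and without NT replicate 1, NT replicate 2 or OsNAC14OX replicate 1, and leaving out one library gave 0 to 18 calls. An unadjusted p with a fold of 2 gave 3 calls and putting back the 5 genes gave 2. With only descriptions held by 1 gene on each end, 44 of 71 pairs had separate levels. The 56 pairs with separate levels became 99 of 153 pairs when generic descriptions were also paired and 22 of 42 when both copies needed 5 FPKM. Leaving out one library gave 57 to 67. The median absolute difference between copies in NT (0.454) was 0.649 with a pseudocount of 0.1, 0.575 with generic descriptions, 0.405 with a start below 2000000, and 0.528 without the pairs that agreed within 10%, an alternative chosen after seeing the data. Leaving out one library gave 0.435 to 0.484. Pairs with changes at least 1 log2 apart numbered 3 with a pseudocount of 0.1, 2 with generic descriptions and 0 when both copies needed 5 FPKM, against 1, and 0 to 2 when one library was left out. The cause of these moves was not tested, except that other pairing rules, filters and left-out libraries change the number of pairs, transcripts or libraries by construction. No called value changed sign under the alternatives run. The medians of the ends lay on both sides of 0, between -0.0449 and 0.0508. Without OsNAC14OX replicate 2, 5 named members that had not been called were called. With the replicate number as a block, 0 of 30251 transcripts and 0 members were called. Deviations of same-numbered libraries had a correlation of 0.0037 over these transcripts, so the numbers are not treated as pairs. Depth is unknown and 2 libraries in a group limit the test.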
